A study of Ovis aries with 30 samples.

Results

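Kidneys of sheep (Ovis aries) at fetal day 90 were compared with kidneys at 10 weeks after birth, gene by gene, on Affymetrix bovine expression arrays. The comparison used 5 fetal arrays, titled 10A, 14A, 19A, 26A and 80B, and 5 arrays at 10 weeks, titled 7, 8, 9, 10 and 11, which are 10 of the 30 arrays of the series. A further 5 adult kidney arrays served as a reference for levels and shared the estimate of the spread, and the lung arrays of the series entered only the choice of probe sets, a check of tissue markers and an alternative fit. The members were all 9155 genes with a probe set of a single gene symbol, each read by 1 probe set, the brightest on average over the 30 arrays. The design text speaks of biological replications. The labels used here give no breed, sex, treatment or batch, so every group is described by tissue and age alone, and values stand for whole kidney tissue. Levels are deposited log2 expression values, and a change is the 10-week mean minus the fetal mean in log2 units ± its standard error, so that a change of 1 is a doubling. Values by array are given in the order of the titles above.

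The permanent kidney forms by exchange between an epithelial tree, the ureteric bud, and the mesenchyme around it. Mesenchyme cells cap each bud tip, condense under Wnt and BMP signals into vesicles, fold into S-shaped bodies and lengthen into nephrons, while the bud becomes the collecting duct. Each nephron then has a glomerulus that filters blood, a proximal tubule that takes back glucose, phosphate, amino acids, bicarbonate and filtered protein and secretes organic anions, and distal segments that set the final salt, water and acid content of urine. In sheep, new nephrons form only before birth, and the placenta does most of the work of clearance until then.

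The arrays of each age were alike. Their medians lay between 6.62 and 6.74, and the correlation across genes of 2 arrays was 0.985 to 0.996 within an age and 0.944 to 0.957 between the ages. Kidney markers stood far above their level in lung: uromodulin (UMOD), the main protein of normal urine, averaged 11.44 in fetal kidney and 12.87 at 10 weeks against 5.32 and 5.66 in lung of those ages, and the vitamin B12 receptor cubilin (CUBN) averaged 11.97 and 12.95 against 6.87 and 6.02. Surfactant protein C (SFTPC), a lung product, read 5.63 and 5.65 in kidney and 10.95 and 12.31 in lung. The fetal lung arrays were not alike, with 8.08 to 11.91 for the kidney cadherin CDH16 and 5.92 to 12.87 for the liver enzyme ARG1, and they enter no change given below. The probe set of SLC12A1, the furosemide-sensitive transporter of the thick ascending limb, read 4.16 in kidney at both ages and 4.02 and 3.97 in lung, so on this bovine array it did not tell kidney from lung. Bovine probes can read a sheep transcript low, so a low level here need not be a low level in the tissue. Defining genes such as SIX2, WT1, PAX2, NPHS1, LRP2 and AQP2 were not analysed here.

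Of the 9155 genes, limma called 4111 different between the ages (44.9%), 2188 higher at 10 weeks (23.9%) and 1923 lower (21.0%). The arrays did not overlap for 1670 higher genes (18.2%) and 1531 lower genes (16.7%). A change of at least 1 passed the test in 490 higher and 465 lower genes, and one of at least 3 in 38 higher and 36 lower genes. The median change over all genes was 0.03, and the median standard error 0.12. A share of called members near these percentages says nothing particular of a group. In whole tissue, fewer cells of a type and less RNA per cell cannot be told apart.

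**Figure D1:**
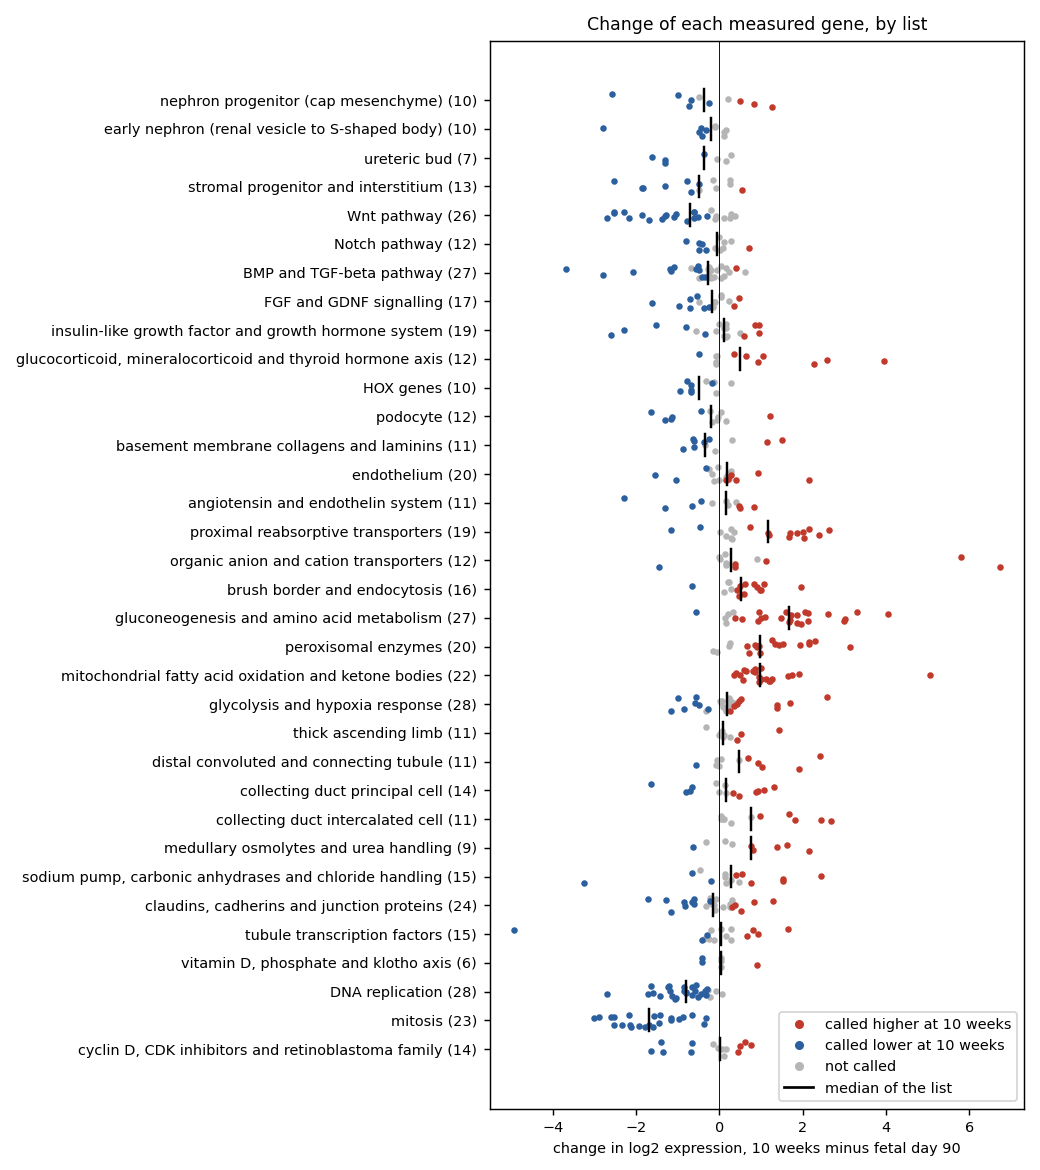
Change of every measured gene in log2 units, 10 weeks minus fetal day 90 (horizontal axis), for 34 groups of kidney and growth genes (rows, with the number of genes measured). Red points were called higher at 10 weeks, blue points lower and grey points not called, and the black bar is the median of the group. Fatty acid oxidation and mitosis lie wholly to the right and wholly to the left of 0, whereas the principal cell, endothelial and glycolysis rows hold both colours.

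Genes of the forming nephron differed by member. Of 10 measured genes of the cap mesenchyme, the nephron progenitor pool, 5 fell and 3 rose (median change -0.37), and the 5 became 1 when the 25% of genes with the lowest mean were left out. NCAM1, an adhesion molecule of condensing mesenchyme, read 6.42, 6.88, 6.26, 7.16 and 6.81 in fetal kidney and 4.05, 3.88, 4.18, 4.22 and 4.32 at 10 weeks. Every fetal array lay above every 10-week array, and the fall was 2.58 ± 0.20 (adjusted p = 1.91e-08), or 5.97-fold. LYPD1 fell by 1.0 ± 0.23, and ROBO2, a receptor that limits where buds form, fell by 0.72 ± 0.12. CITED1, a transcriptional cofactor used as a marker of the earliest progenitors, went the other way. It read 6.53, 6.70, 6.80, 6.22 and 6.73 in fetal kidney and 7.39, 7.66, 8.07, 8.10 and 8.04 at 10 weeks. These ranges do not touch, and the rise was 1.26 ± 0.17. The cadherin CDH2, which adult proximal tubule cells also carry, rose by 0.84 ± 0.09 and CRYM, a thyroid hormone binding protein, by 0.49 ± 0.10. A second CRYM probe set, dimmer over all arrays but brighter at 10 weeks, went from 6.08 to 8.06 and rose by 1.98 ± 0.20.

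In the list of early nephron stages, from renal vesicle to S-shaped body, 5 of 10 members were called lower and 0 higher (median change -0.21). These were 50.0% and 0.0%, against 21.0% and 23.9% of all genes. BMP7, a growth factor that keeps progenitors alive, read 10.73, 10.59, 10.89, 10.96 and 11 in fetal kidney and 8.38, 7.50, 7.90, 7.99 and 8.41 at 10 weeks. Every fetal array was well above the highest 10-week array, and the gene was 6.96-fold lower (change -2.80 ± 0.22). The homeobox gene IRX3 fell by 0.45 ± 0.10 and the Notch ligand JAG1 by 0.48 ± 0.08. PAX8, which marks the committed nephron lineage and stays on in tubules, changed by 0.10 ± 0.18 and did not pass the test, nor did SOX4 (-0.11) or EMX2 (0.16). The count of 5 became 3 without fetal array 14A and also without 10-week array 8.

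The ureteric bud list had 4 of 7 members lower and 0 higher (57.1% and 0.0%, against 21.0% and 23.9% of all genes). RET, the bud's receptor for GDNF, read 6.01, 6.48, 5.97, 6.43 and 5.96 in fetal kidney and 4.12, 4.52, 4.82, 4.67 and 4.62 at 10 weeks, without overlap. WNT11, a ligand of the bud tip, fell by 1.31 ± 0.14 and SPRY1, a feedback inhibitor of RET signalling, fell by 0.38 ± 0.12. The angiotensin receptor AGTR2, which is expressed mainly before birth, fell by 1.31 ± 0.13. The homeobox gene HOXB7 (0.27 ± 0.19) and the guidance cue SLIT2 (-0.05 ± 0.17) did not pass.

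Among stromal progenitor and interstitial genes 7 of 13 fell and 1 rose (median change -0.48). That was 53.8% and 7.7%, against 21.0% and 23.9% of all genes. The homeobox cofactor MEIS1 read between 9.40 and 9.59 in fetal kidney and between 7.27 and 7.87 at 10 weeks, 3.63-fold lower. Tenascin C (TNC), a matrix protein of developing mesenchyme, fell by 1.83 ± 0.16, although its dimmer probe set rose from 5.96 to 6.48. MEIS2 fell by 0.67 ± 0.07 and the collagen-binding proteoglycan decorin (DCN) by 0.77 ± 0.16. OGN, a related proteoglycan, was the member that rose (0.55 ± 0.13), and lumican (LUM) changed by -0.16 ± 0.11 without passing. Without 10-week array 7 a second member passed upward, SFRP1, which makes 2. Of 10 HOX genes 6 fell and 0 rose (60.0% and 0.0%, against 21.0% and 23.9% of all genes). HOXA5 led, with a fall of 0.95 ± 0.07 from a fetal mean of 12.58. HOXA9 (-0.08 ± 0.09) and HOXB3 (-0.12 ± 0.13) did not pass.

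Signalling genes that act between bud, mesenchyme and stroma fell more often than they rose. In the Wnt pathway 18 of 26 genes were lower and 0 higher (69.2% and 0.0%, against 21.0% and 23.9% of all genes). The median change was -0.70. In 16 of the 26, all lower at 10 weeks, the arrays did not overlap, which held for 16.7% of all genes. Among ligands and their boosters, RSPO3, a secreted enhancer of Wnt signalling, read 8.71, 8.40, 8.83, 8.72 and 8.32 in fetal kidney and 5.72, 5.89, 6.30, 6.42 and 5.97 at 10 weeks. That is 5.80-fold lower, and the lowest fetal array was well above the highest 10-week array. The related RSPO1 fell by 0.52 ± 0.14, while WNT2B (0.27 ± 0.19) and WNT6 (0.11 ± 0.11) did not pass. Without 10-week array 7, 2 members passed upward, WNT2B (0.44) and the inhibitor SFRP1 (0.35).

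Of the Wnt receptors, ROR2 read between 10.52 and 10.87 in fetal kidney and between 8.29 and 8.78 at 10 weeks and fell by 2.30 ± 0.12 (adjusted p = 1.88e-10). The frizzled receptors FZD10, FZD3, FZD1 and FZD4 fell by 1.85, 1.08, 0.77 and 0.60. The co-receptor LRP5 (-0.10 ± 0.14) and the R-spondin receptor LGR4 (-0.07 ± 0.09) did not pass. Inhibitors of the pathway fell as well. APCDD1, a membrane inhibitor, read 11.40, 11.29, 11.38, 11.38 and 11.39 in fetal kidney and 8.45, 8.62, 8.45, 8.67 and 9.17 at 10 weeks. The 5 fetal arrays were nearly equal, all above the 10-week arrays, and the fall was 2.70 ± 0.15. SFRP2, DKK1 and FRZB, which bind Wnt proteins or their receptors outside the cell, fell by 2.17, 1.37 and 1.28. DKK3, a relative of DKK1, fell by 1.68, whereas SFRP1 (0.25 ± 0.13) and SFRP4 (0.37 ± 0.29) did not pass. In the nucleus, LEF1, a transcription factor that carries the signal, read 11.14, 11.29, 11.14, 11.19 and 11.19 before birth and 8.82, 8.58, 8.75, 8.36 and 8.81 after it, and TCF7 fell by 1.04 ± 0.11. Beta-catenin itself (CTNNB1) averaged 13.10 and 13.02 and did not pass (change -0.09 ± 0.08).

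In the BMP and TGF-beta pathway 11 of 27 genes fell and 1 rose (40.7% and 3.7%, against 21.0% and 23.9% of all genes). The largest fall was that of FST, follistatin, which binds and blocks activins. It read 9.18, 9.66, 9.84, 9.45 and 9.94 in fetal kidney and 6.49, 5.10, 5.74, 5.93 and 6.42 at 10 weeks. The highest 10-week array was far below the lowest fetal array, and the gene was 12.8-fold lower (change -3.68 ± 0.22). The activin subunit INHBA fell by 1.18 ± 0.11, so the ligand and its antagonist were both lower. The BMP-binding protein BMPER fell by 2.07 ± 0.17 and the ligands BMP2 and BMP5 by 1.08 ± 0.14 and 1.15 ± 0.16. The intracellular mediators SMAD2, SMAD4 and SMAD5 changed by -0.05, -0.19 and 0.11, and none passed. ID2, a target of BMP signalling, rose by 0.40 ± 0.09 from a fetal mean of 12.01, and its relatives ID1 (0.23 ± 0.18) and ID3 (-0.14 ± 0.15) did not pass.

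FGF and GDNF signalling held 7 of 17 genes lower and 2 higher (41.2% and 11.8%, against 21.0% and 23.9% of all genes). The 7 became 4 without fetal array 26A. FGF10, a ligand made by mesenchyme, fell by 0.97 ± 0.15 and the receptor FGFR2 by 0.70 ± 0.17. FGFRL1, a receptor without a kinase, rose by 0.48 ± 0.13, and the sprouty gene SPRY2 (-0.18 ± 0.13) did not pass. The count of 2 became 1 without each of fetal arrays 10A, 26A and 80B and 10-week arrays 10 and 11. The median change in the Notch list was -0.06. In it 5 of 12 genes were lower and 1 higher (41.7% and 8.3%, against 21.0% and 23.9% of all genes). Those 5 became 2 without fetal array 14A and also without 10-week array 8, and the 1 became 2 without fetal array 10A or 10-week array 9 or 11. The Notch-related DLK1 fell by 0.80 ± 0.14, and by 2.12 ± 0.15 on its dimmer probe set, from 12.20 to 10.08. The fringe enzyme MFNG rose by 0.72 ± 0.19, and the vascular members DLL4 (0.08 ± 0.10) and NOTCH4 (-0.10 ± 0.13) did not pass.

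**Figure D2:**
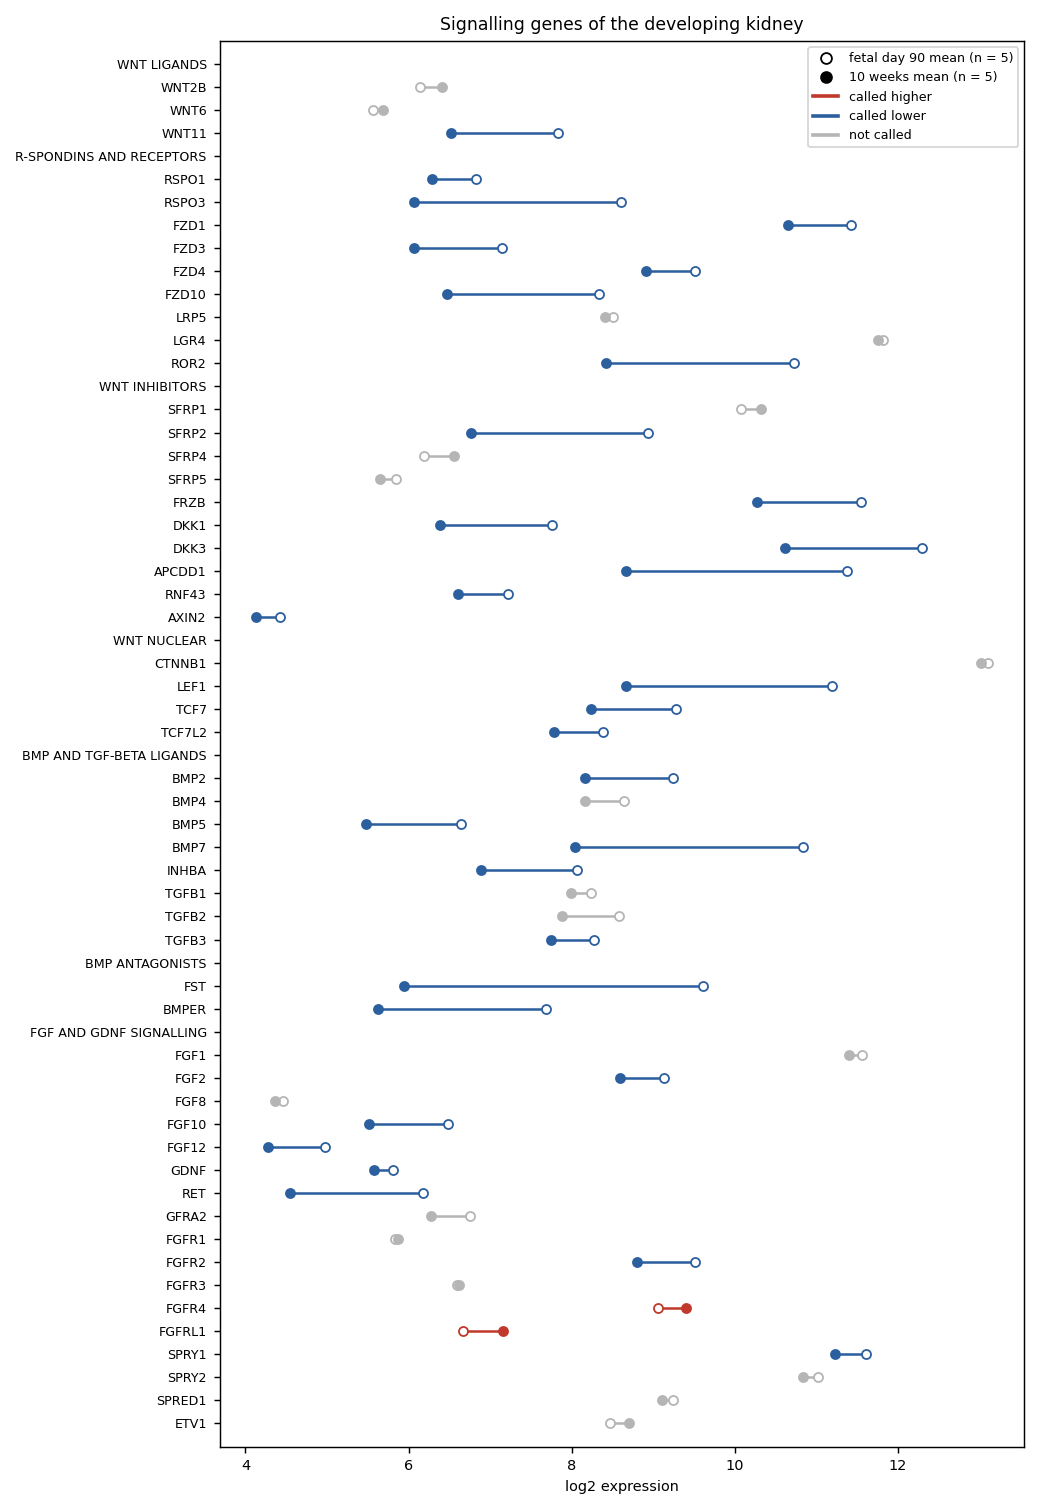
Mean log2 expression (horizontal axis) in fetal kidney (open circles, n = 5) and kidney at 10 weeks (filled circles, n = 5), 1 gene per row. Rows are the measured Wnt, FGF and GDNF genes, and ligands and antagonists of the BMP and TGF-beta list. Receptors, SMADs and ID genes of the BMP and TGF-beta list are not drawn. Blue lines were called lower, red lines higher and grey lines not called. In the Wnt rows, receptors, inhibitors and nuclear factors all include long blue lines, whereas beta-catenin (CTNNB1) is grey at about 13.

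In the insulin-like growth factor system 5 of 19 genes were lower and 4 higher (26.3% and 21.1%), shares near the 21.0% and 23.9% of all genes. The fetal RNA-binding proteins IGF2BP3 and IGF2BP1 fell by 2.60 ± 0.21 and 1.51 ± 0.12. The binding proteins IGFBP3 and IGFBP4, which hold IGFs in plasma and tissue, rose by 0.96 ± 0.12 and 0.96 ± 0.14, IGFBP5 rose by 0.58 ± 0.16 and STAT5B, which relays growth hormone signals, by 0.85 ± 0.15. IGF1 (-0.09 ± 0.11) and the growth hormone receptor GHR (0.16 ± 0.15) did not pass, but the dimmest probe set of IGF1 fell by 1.17 ± 0.16, from 4.77 to 3.60, without overlap. IGF2 fell by 2.29 ± 0.29 on its brightest probe set, which detects several transcripts, and without such sets its change was 0.32.

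Genes of the glomerulus did not move together. Of 12 podocyte genes 5 fell and 1 rose (41.7% and 8.3%, against 21.0% and 23.9% of all genes). Their median change was -0.20. Their mean was 9.73 to 9.80 in fetal kidney and 9.33 to 9.42 at 10 weeks. In lung of those ages it was 8.78 to 9.67 and 9.79 to 9.95, so the list did not mark kidney off from lung at 10 weeks. The cell cycle inhibitor CDKN1C, which podocytes express as they leave the cell cycle, read 12.54, 12.46, 12.40, 12.36 and 12.38 in fetal kidney and 10.51, 10.68, 10.85, 10.98 and 10.97 at 10 weeks, without overlap. TCF21, a transcription factor of podocytes and stroma, fell by 1.31 ± 0.16, the intermediate filament gene NES by 1.15 ± 0.12 and the cation channel TRPC6 by 1.14 ± 0.09. PLA2R1, the podocyte receptor targeted in membranous nephropathy, rose by 1.21 ± 0.18 from values of 5.47 to 5.81 to values of 6.46 to 7.05. The cytoskeletal genes ACTN4 (-0.03 ± 0.12) and CD2AP (-0.05 ± 0.12), and CLIC5 (0.05 ± 0.12), did not pass.

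Of 11 collagen and laminin genes of basement membranes, 6 were lower and 2 higher (54.5% and 18.2%, against 21.0% and 23.9% of all genes). The glomerular basement membrane is first built on the collagen IV chains alpha 1 and alpha 2 and later on alpha 3, alpha 4 and alpha 5. COL4A1 read 11.98, 11.90, 11.80, 11.84 and 11.80 in fetal kidney and 11.27, 11.51, 11.31, 11.08 and 11.06 at 10 weeks. COL4A3 read 8.06, 8.25, 8.33, 8.0 and 8.47, then 8.98, 9.04, 9.58, 9.67 and 9.62. COL4A4 read 8.18, 8.44, 8.03, 8.20 and 8.41, then 9.55, 9.70, 9.85, 9.82 and 9.90. All 3 chains were separated between the ages, the first downward by 0.62 ± 0.10 and the other two upward by 1.15 ± 0.17 and 1.51 ± 0.14. COL4A2 and COL4A5 were not analysed here. The laminin chains LAMA4, LAMC1 and LAMB1 fell by 0.87, 0.60 and 0.24 and the linker nidogen NID1 by 0.63 ± 0.13, while perlecan (HSPG2, -0.11 ± 0.10) did not pass. The dimmer probe sets of COL4A1 and COL4A3 did not pass, and without multi-transcript sets the LAMC1 change was -0.06.

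Endothelial genes rose in 6 of 20 and fell in 3 (median change 0.18). The water channel AQP1, which proximal tubule and descending thin limb cells also make, rose by 2.16 ± 0.13, and the VEGF receptor FLT1 rose by 0.92 ± 0.17. The receptor TIE1 read 8.17 to 9.36 in fetal kidney and 6.07 to 7.93 at 10 weeks and fell by 1.54 ± 0.36. The junction protein CDH5 fell by 1.03 ± 0.24, with 10-week array 11 (11.05) above fetal array 80B (10.73). Other markers of these cells, KDR (0.24 ± 0.19), NOS3 (-0.03 ± 0.16) and CLDN5 (-0.14 ± 0.12), did not pass. In the list of angiotensin and endothelin genes 3 of 11 rose and 4 fell (27.3% and 36.4%, against 23.9% and 21.0% of all genes). EDNRA, the endothelin receptor of vascular smooth muscle, read 10.33, 10.28, 10.69, 10.82 and 10.72 before birth and 8.34, 8.23, 8.09, 8.23 and 8.52 after it, 4.87-fold lower and without overlap. EDNRB (0.17 ± 0.19) and angiotensinogen (AGT, -0.17 ± 0.13) did not pass. Smooth muscle genes as a list did not follow EDNRA: 2 of 10 rose, 0 fell, and ACTA2 changed by -0.09 ± 0.18.

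Genes of the proximal tubule included the 2 largest rises of the comparison. Of 19 reabsorptive transporters 11 rose and 2 fell (57.9% higher, against 23.9% of all genes; median change 1.16). SLC4A4, the basolateral bicarbonate exit, read 6.43, 7.25, 7.0, 6.67 and 6.52 in fetal kidney and 9.89, 8.86, 9.04, 9.75 and 9.53 at 10 weeks, 6.24-fold higher. The apical sodium-proton exchanger SLC9A3, its partner in bicarbonate recovery, rose by 1.86 ± 0.11. SLC7A9 and SLC3A1, the 2 subunits of the cystine transporter, rose by 2.38 ± 0.16 and 1.16 ± 0.23. The dicarboxylate and citrate transporters SLC13A3 and SLC13A2 rose by 2.03 ± 0.20 and 1.70 ± 0.12, and the lactate carrier SLC16A1 by 2.01 ± 0.15.

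Sugar carriers differed by member. SLC5A2, the high-capacity glucose transporter of the early proximal tubule, read 9.04, 9.32, 8.91, 8.97 and 8.91 in fetal kidney and 10.52, 10.73, 10.75, 11.14 and 10.40 at 10 weeks and rose by 1.68 ± 0.14. SLC5A1, the high-affinity carrier of the late segment, changed by 0.15 ± 0.12, and the facilitative carrier SLC2A5 by 0.29 ± 0.38, and neither passed. SLC5A10, which carries mannose and fructose, read 9.74, 9.97, 9.84, 9.68 and 9.59 and then 8.81, 8.66, 8.49, 8.69 and 8.35, a separation downward (change -1.16 ± 0.21), although its 2 dimmer probe sets did not pass. The peptide transporter SLC15A1 fell by 0.47 ± 0.11. SLC34A1, the main phosphate transporter, overlapped between the ages, with 9.70 to 10.44 in fetal kidney and 9.71 to 10.89 at 10 weeks. Its change of 0.36 ± 0.22 did not pass, but was 0.53 and passed without 10-week array 10.

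The secretory list was led by a pair of organic anion transporters of the basolateral membrane. SLC22A6 read 4.58, 4.86, 5.26, 5.0 and 5.03 in fetal kidney and 11.91, 11.21, 11.81, 11.75 and 11.72 at 10 weeks, 107-fold higher. SLC22A8 read 5.71, 6.24, 6.62, 5.81 and 7.20 and then 12.02, 12.22, 12.28, 12.39 and 11.67, 55.6-fold higher. Adult kidney had means of 11.22 and 11.97 for these genes. The carnitine transporter SLC22A5 rose by 1.11 ± 0.16. ABCG2, the efflux pump that exports urate and drugs, read 8.11, 8.43, 8.28, 8.07 and 8.19 before birth and 6.61, 6.65, 6.83, 6.72 and 7.02 after it, 2.73-fold lower. Of the 12 genes 5 rose (3 without fetal array 10A) and 1 fell. That was 41.7% and 8.3%, against 23.9% and 21.0% of all genes. SLCO1A2 (-0.0 ± 0.13), SLCO2A1 (0.01 ± 0.13) and ABCC1 (0.16 ± 0.14) did not pass, although a dimmer ABCC1 probe set rose by 0.55 ± 0.19.

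Brush border and endocytosis genes rose in 11 of 16 and fell in 1, with a median change of 0.53. The shares were 68.8% and 6.2%, against 23.9% and 21.0% of all genes. Alkaline phosphatase (ALPL) rose by 1.95 ± 0.17, the scaffold PDZK1 by 1.0 ± 0.17, cubilin by 0.98 ± 0.09 and villin (VIL1) by 0.91 ± 0.14. The peptidases parted: neprilysin (MME) and DPP4 rose by 0.84 ± 0.11 and 0.58 ± 0.08, ANPEP fell by 0.66 ± 0.18 and ENPEP (0.21 ± 0.16) did not pass. The cathepsin CTSH (0.10 ± 0.11) did not pass.

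Of 27 genes of gluconeogenesis and amino acid metabolism 22 rose and 1 fell (81.5% and 3.7%, against 23.9% and 21.0% of all genes). Their median change was 1.68. Ketohexokinase (KHK), which starts fructose breakdown, read 7.11, 7.09, 7.21, 7.01 and 7.20 in fetal kidney and 10.98, 11.28, 11.69, 11.30 and 10.66 at 10 weeks, 16.7-fold higher. PCK1, the committed step of gluconeogenesis, read 10.03, 9.71, 9.95, 10.30 and 10.71 and then 13.39, 13.57, 13.53, 13.48 and 13.26, 9.91-fold higher. Later steps of that route rose too: FBP1 by 3.01 ± 0.34 and G6PC1, which releases free glucose, by 2.62 ± 0.19. Inositol breakdown (MIOX, 3.0 ± 0.21), arginine synthesis (ASS1, 2.12 ± 0.18, and ASL, 1.68 ± 0.30) and tyrosine breakdown (HPD, 1.87 ± 0.12, and HGD, 1.61 ± 0.11) rose as well. GATM, the first enzyme of creatine synthesis, rose by 0.37 ± 0.10 from a fetal mean of 11.98. The exception was betaine-homocysteine methyltransferase (BHMT), whose level was low at both ages (5.31 and 4.74); its fall of 0.57 ± 0.18 was 0.41 and missed the threshold without fetal array 10A.

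Peroxisomal enzymes rose in 16 of 20 with 0 lower (80.0% higher, against 23.9% of all genes). The branched-chain oxidase ACOX2 rose by 3.13 ± 0.25, the sarcosine oxidase PIPOX by 2.30 ± 0.19, AMACR by 2.15 ± 0.17 and the very long chain acyl-CoA synthetase SLC27A2 by 2.14 ± 0.14. The 4 that did not pass were HSD17B4 (0.25) and 3 peroxins, the proteins that build the organelle: PEX11A (-0.15), PEX19 (0.22) and PEX7 (-0.05). HSD17B4 passed, at 0.30, without 10-week array 7 and without array 10, and PEX19, at 0.29, without array 9. All 22 genes of mitochondrial fatty acid oxidation and ketone bodies rose, against 23.9% of all genes (median change 0.97). ACSM1, which activates medium-chain fatty acids, had the largest change of the list, with values from 6.13 to 6.33 in fetal kidney and from 11.14 to 11.58 at 10 weeks, 33.2-fold higher. Its only probe set detects several transcripts. The acyl-CoA dehydrogenases ACADL and ACADVL rose by 1.64 ± 0.13 and 1.26 ± 0.08 and the carnitine carrier SLC25A20 by 0.49 ± 0.12. Without multi-transcript probe sets, DECR1 changed by 0.31 and missed the threshold.

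Glycolysis and hypoxia genes split, with 9 of 28 higher and 7 lower (32.1% and 25%, against 23.9% and 21.0% of all genes). Lactate dehydrogenase A (LDHA) read 11.19, 10.95, 11.32, 11.27 and 11.21 in fetal kidney and 10.43, 9.92, 10.17, 10.26 and 10.23 at 10 weeks. Its arrays were separated, but of its dimmer probe sets 1 did not pass and 1 rose from 8.17 to 8.79. Pyruvate kinase M (PKM), the glucose carrier SLC2A1 and hexokinase HK1 fell by 1.17 ± 0.09, 0.86 ± 0.11 and 0.56 ± 0.12. PGK1 and ENO1, enzymes of the middle of the pathway, rose by 0.53 ± 0.11 and 0.43 ± 0.11, and GAPDH (0.25 ± 0.18) and GPI (0.03 ± 0.12) did not pass. PDK4, the kinase that closes pyruvate entry to mitochondria, read 8.41, 8.23, 8.08, 8.24 and 8.33 and then 10.44, 10.55, 11.37, 10.85 and 10.97, 5.97-fold higher. Genes of the hypoxia pathway also differed by member. Of its transcription factor subunits, EPAS1 rose by 1.38 ± 0.15 and HIF1A fell by 0.48 ± 0.11. Of the prolyl hydroxylases that sense oxygen, EGLN3 rose by 1.70 ± 0.17 and EGLN1 (0.06 ± 0.08) did not pass. VEGFA (0.17 ± 0.09), a target of the hypoxia transcription factors, did not pass either, although a dimmer probe set of it rose by 0.94 ± 0.14. Erythropoietin (EPO), a hormone of renal interstitial cells after birth, read 6.26, 6.12, 6.23, 7.08 and 6.54 in fetal kidney and 5.79, 5.99, 6.08, 5.61 and 5.83 at 10 weeks. The gap between the lowest fetal and the highest 10-week array was small, and the fall was 0.59 ± 0.17.

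**Figure D3:**
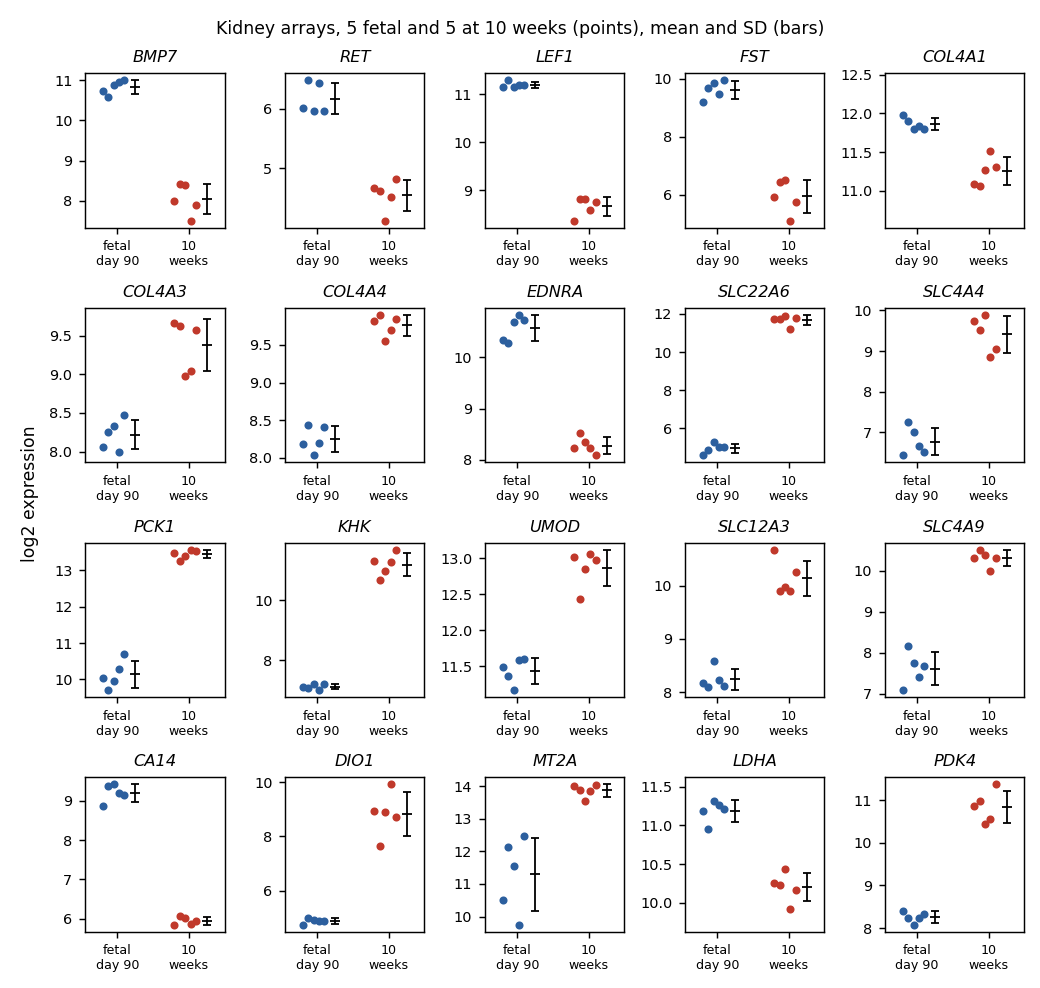
Log2 expression (vertical axis, each panel on its own scale) of genes named in the text in the 5 fetal (blue) and 5 10-week (red) kidney arrays, with the mean and SD beside them (black). The ages are separated in every panel. SLC22A6 stands at about 5 before birth and about 12 after it, and MT2A has the widest spread among fetal arrays, from 9.75 to 12.48.

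In the distal nephron, 3 of 11 thick ascending limb genes rose and 0 fell. That share of 27.3% is near the 23.9% of all genes. Uromodulin read 11.49, 11.36, 11.17, 11.58 and 11.60 in fetal kidney and 12.85, 13.06, 12.98, 13.02 and 12.44 at 10 weeks, 2.69-fold higher, and the paracellular sodium pore CLDN10 rose by 0.52 ± 0.07. The calcium-sensing receptor CASR (0.05 ± 0.29), CLDN16 (0.08 ± 0.26) and EGF (0.02 ± 0.10) did not pass. In the distal convoluted and connecting tubule 5 of 11 rose and 1 fell (45.5% and 9.1%, against 23.9% and 21.0% of all genes). SLC12A3, the target of thiazide diuretics, read 8.17, 8.10, 8.59, 8.22 and 8.11, then 9.97, 9.90, 10.25, 10.68 and 9.90, and KLK1, the kallikrein secreted into urine, read 9.83, 9.61, 10.78, 9.55 and 10.22, then 12.60, 12.10, 12.56, 12.33 and 12.52. Both were separated, by 3.74-fold and 5.36-fold. The potassium channel KCNJ16 rose by 1.03 ± 0.17, while its partner KCNJ10 (-0.06 ± 0.14) did not pass. Calbindin D9k (S100G) was near the top of the array's range at both ages, 13.91 and 13.94. The calcium pump ATP2B1 fell by 0.57 ± 0.11.

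Principal cells of the collecting duct had 6 of 14 genes higher and 4 lower (42.9% and 28.6%, against 23.9% and 21.0% of all genes). All 3 subunits of the epithelial sodium channel rose, SCNN1G by 1.08 ± 0.12, SCNN1B by 0.87 ± 0.10 and SCNN1A by 0.47 ± 0.09, and so did HSD11B2, which keeps cortisol from the mineralocorticoid receptor, by 0.93 ± 0.08. The basolateral water channel AQP3 read 8.61, 8.54, 8.26, 8.28 and 8.78 before birth and 9.66, 9.84, 9.85, 10.09 and 9.62 after it, and AQP4 fell by 0.71 ± 0.19. Keratins of simple duct epithelium fell: KRT19 read 9.67, 9.88, 9.60, 9.61 and 9.65 and then 7.99, 7.87, 7.82, 8.24 and 8.36, and KRT18 fell by 0.81 ± 0.15. The vasopressin receptor AVPR2 (0.14 ± 0.11), SGK1 (-0.07 ± 0.08) and NEDD4L (0.0 ± 0.13) did not pass.

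Intercalated cells, which secrete acid or base, had 5 of 11 genes higher and 0 lower (45.5% higher, against 23.9% of all genes). The transporter SLC4A9 of the base-secreting type read 7.09, 8.16, 7.74, 7.41 and 7.67 in fetal kidney and 10.37, 10.0, 10.31, 10.31 and 10.51 at 10 weeks, 6.44-fold higher. Carbonic anhydrase II (CA2), which supplies protons and bicarbonate, read 8.02, 7.51, 7.48, 7.95 and 8.07 and then 9.89, 10.68, 10.38, 10.60 and 9.69. Both were separated. HEPACAM2 and the ammonia transporter RHBG rose by 1.81 ± 0.19 and 1.67 ± 0.14, and the proton pump subunit ATP6V0A4 by 0.98 ± 0.09. The related RHCG changed by 0.75 ± 0.31 and did not pass, but was 0.92 and passed without 10-week array 8. KIT (0.09 ± 0.23) and SLC4A1 (0.05 ± 0.13) did not pass.

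**Figure D4:**
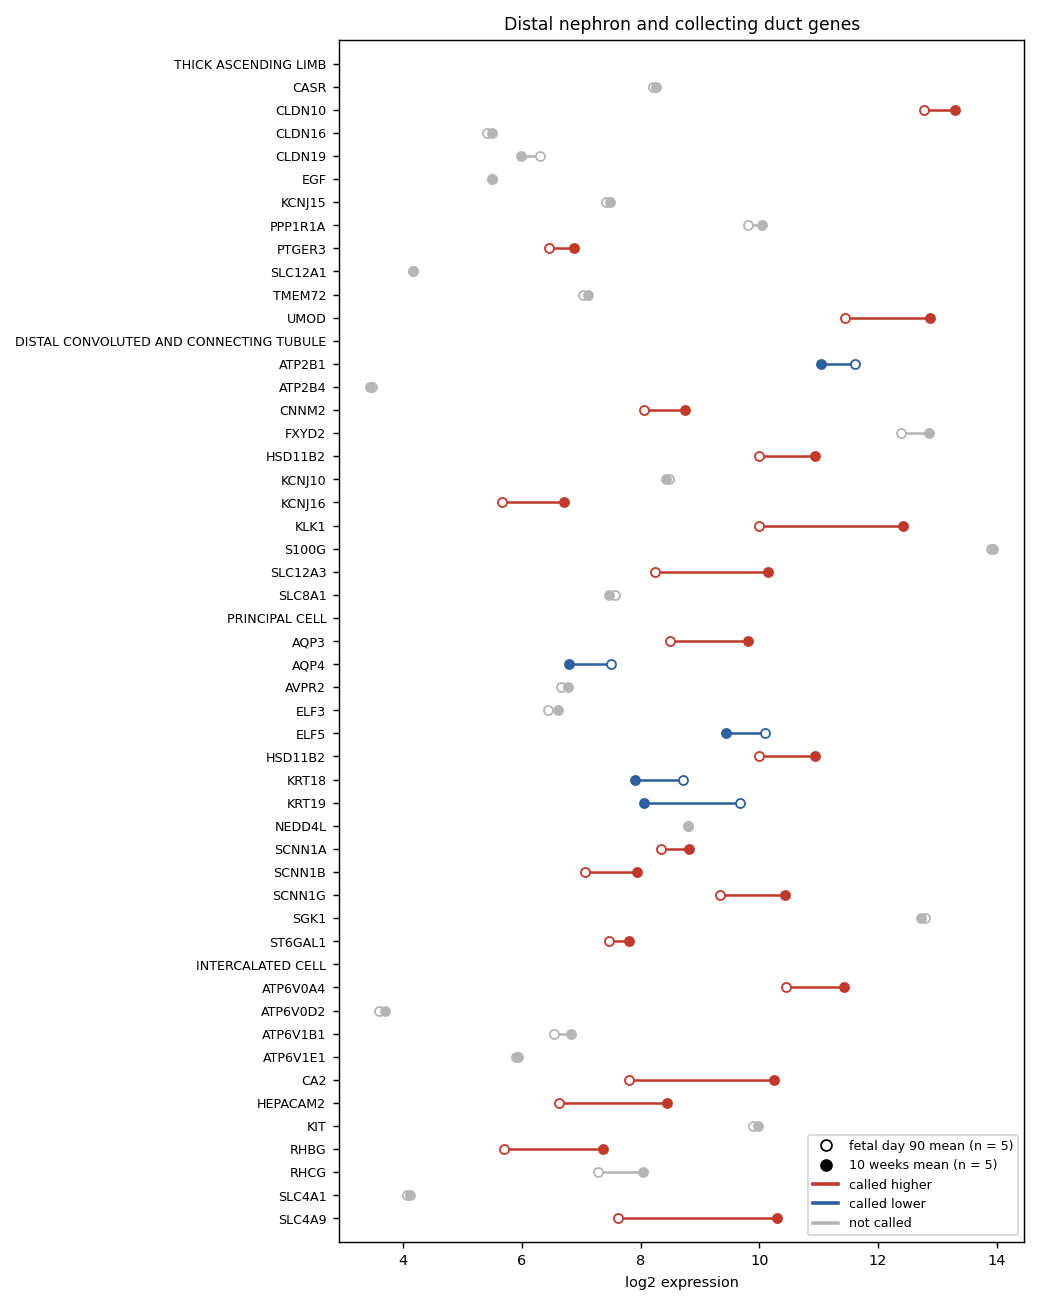
Mean log2 expression (horizontal axis) in fetal kidney (open circles, n = 5) and kidney at 10 weeks (filled circles, n = 5) for 47 rows of genes of the thick ascending limb, distal convoluted tubule, principal cells and intercalated cells; HSD11B2 stands in 2 segments. Red lines were called higher, blue lower and grey not called. Sodium channel subunits are red while the keratins KRT18 and KRT19 are blue.

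Carbonic anhydrases did not rise as a family. CA4, the membrane form of the proximal tubule, and CA13 rose by 1.53 ± 0.08 and 1.53 ± 0.23 and CA3 by 0.75 ± 0.11. CA14, another membrane form, read 8.87, 9.37, 9.42, 9.20 and 9.14 in fetal kidney and 6.02, 5.86, 5.94, 5.85 and 6.08 at 10 weeks, 9.51-fold lower and without overlap, and CA8 fell by 0.65 ± 0.09. The sodium pump subunit ATP1B1 averaged 13.38 and 13.52 and did not pass. Of 9 genes of osmolyte and urea handling in the medulla, 5 rose and 1 fell. That was 55.6% and 11.1%, against 23.9% and 21.0% of all genes. The small heat shock protein CRYAB rose by 1.62 ± 0.16, GPD1 by 1.39 ± 0.19 and the taurine carrier SLC6A6 by 0.81 ± 0.13. Aldose reductase (AKR1B1), which makes sorbitol, was the member that fell, by 0.64 ± 0.10. A second member fell, making 2, without fetal array 14A or 10-week array 8.

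Cell junction genes also traded members, with 5 of 24 higher and 9 lower (20.8% and 37.5%, against 23.9% and 21.0% of all genes). The claudin of the leaky proximal tubule, CLDN2, read 10.89, 10.73, 10.61, 10.81 and 10.76 before birth and 11.88, 12.28, 11.99, 12.17 and 11.87 after it, 2.43-fold higher. Claudins of tighter epithelia were lower, CLDN4 by 0.86 ± 0.24, CLDN7 by 0.83 ± 0.19 and CLDN3 by 0.61 ± 0.15 in size, and CLDN11 fell by 1.15 ± 0.21. Among cadherins, the mesenchymal CDH11 read 12.25, 11.99, 12.11, 12.50 and 12.35 and then 10.69, 10.64, 10.86, 10.10 and 10.32, and CDH3 and CDH1 fell by 1.28 ± 0.12 and 0.66 ± 0.11. The kidney cadherin CDH16 rose by 0.31 ± 0.09, and by 0.59 ± 0.09 and without overlap on its other probe set, which was the brighter of the pair in kidney (12.65 and 13.23). EPCAM (-0.22 ± 0.16), CLDN15 (-0.07 ± 0.13) and TJP3 (-0.11 ± 0.16) did not pass.

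Transcription factors of the tubule followed no single direction: 4 of 15 rose and 3 fell, near the shares of all genes. PPARA, which drives genes of fatty acid oxidation, read 6.20, 5.86, 6.26, 6.48 and 6.20 in fetal kidney and 7.66, 7.95, 7.90, 7.99 and 7.70 at 10 weeks, 3.12-fold higher. KLF15, HNF4A and RXRA rose by 0.93 ± 0.12, 0.80 ± 0.13 and 0.67 ± 0.09. PPARGC1A (-0.21 ± 0.10) did not pass from a fetal mean of 12.17. CUX2, a homeobox gene, read 10.66, 10.48, 10.59, 10.76 and 10.76 and then 5.85, 5.47, 5.43, 5.80 and 6.03, 30.6-fold lower, on a probe set that detects several transcripts, while its paralog CUX1 changed by -0.12 ± 0.23. Of 6 genes of vitamin D and phosphate balance, 1 rose, the parathyroid hormone receptor PTH1R (0.91 ± 0.15), and 2 fell, among them CYP27A1, which fell by 0.41 ± 0.08. The shares were 16.7% and 33.3%, against 23.9% and 21.0% of all genes. The 2 became 1 without each of fetal arrays 10A, 14A and 26A and 10-week arrays 8 and 9.

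Genes of steroid and thyroid hormone action rose in 7 of 12 and fell in 1 (58.3% higher, against 23.9% of all genes). Their median change was 0.49. The deiodinase DIO1, which activates thyroxine, read 4.74, 5.0, 4.91, 4.88 and 4.86 in fetal kidney and 8.90, 9.93, 8.72, 8.95 and 7.65 at 10 weeks. The fetal arrays were close together, the 10-week arrays were spread wider with array 11 lowest and array 8 highest, and the gene was 15.5-fold higher. Metallothionein MT2A, induced by glucocorticoids and metals, had the reverse spread, with 10.52, 12.14, 11.55, 9.75 and 12.48 before birth and 13.55, 13.86, 14.04, 14.0 and 13.89 after it, and rose by 2.58 ± 0.37. HSD11B1, which regenerates cortisol, rose by 2.28 ± 0.27, and the glucocorticoid targets FKBP5 and CEBPD rose by 0.63 ± 0.12 and 1.04 ± 0.14. DUSP1 fell by 0.48 ± 0.15. The receptors NR3C1 (-0.08 ± 0.09) and THRA (-0.05 ± 0.08) did not pass.

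Cell division genes were lower at 10 weeks almost throughout, with 24 of 28 replication genes and 23 of 23 mitosis genes lower (median changes -0.80 and -1.70). NDC80, a kinetochore protein, read 8.75, 8.83, 9.14, 9.08 and 9.02 in fetal kidney and 6.71, 6.32, 5.31, 5.88 and 5.55 at 10 weeks, with a fall of 3.01 ± 0.21. The 4 replication genes that did not pass were CDT1 (0.06), E2F1 (-0.27), RFC2 (-0.22) and RFC5 (-0.07). E2F1 passed, at -0.38, without 10-week array 11, and RFC2, at -0.27, without 10-week array 9. Dimmer probe sets of CDT1 and RFC5 passed in opposite directions, with changes of -0.44 ± 0.14 and 0.94 ± 0.11. The median difference between adult and 10-week means was 0.81 in size over the mitosis genes and 0.15 over the called replication genes. Regulators around the G1 checkpoint were mixed, with 4 of 14 higher and 5 lower (28.6% and 35.7%, against 23.9% and 21.0% of all genes). MYC fell by 1.39 ± 0.20, CCND2 by 1.36 ± 0.27 and CDK4 by 0.67 ± 0.09, CDKN1A and CCND3 rose by 0.75 ± 0.12 and 0.50 ± 0.13, and CCND1 (0.12 ± 0.12) and RB1 (0.06 ± 0.13) did not pass.

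Markers of blood, immune and nerve cells moved with age beside these groups. The summed level of the 13 red cell genes, as their mean, was 6.69 to 6.81 in fetal arrays and 5.45 to 5.57 at 10 weeks. It rested on HBB, HBG and the haem enzyme ALAS2, which fell by 8.03, 5.61 and 2.85 (± 0.08, 0.26 and 0.12), and GATA1 (0.0 ± 0.12) and AHSP (-0.22 ± 0.25) did not pass. The haem enzyme UROD rose by 0.48 ± 0.09, and without 10-week array 7 a second gene, ANK1 (0.27), passed upward, which makes 2. An HBB probe set without shared probes read 6.06 and 5.30. Lymphocyte and plasma cell genes rose in 10 of 16 with 0 lower (62.5% higher, against 23.9% of all genes). Their mean went from 6.10 to 6.30 in fetal arrays to 6.80 to 7.06. PTPRC, the pan-leukocyte CD45, rose by 1.82 ± 0.14 and the T cell gene CD3E by 1.37 ± 0.17, and CD4 (0.10 ± 0.13) and MS4A1 (0.19 ± 0.10) stood at 5.34 and 4.84 at 10 weeks. MS4A1 passed, at 0.28, without 10-week array 9. Macrophage genes rose in 10 of 15 (66.7%, against 23.9% of all genes) and fell in 1, CD68 (change -0.78 ± 0.13). Their means were 7.26 to 7.53 in fetal arrays and 7.73 to 8.04 at 10 weeks. MHC class II genes rose in 7 of 10 with 0 lower (70.0% higher, against 23.9% of all genes). BOLA-DQA1 read 6.83, 7.15, 7.15, 6.70 and 8.80 in fetal kidney and 6.07, 5.51, 5.59, 5.20 and 5.49 at 10 weeks, and its change of -1.76 ± 0.85 did not pass although the arrays did not overlap. With only the 10 arrays compared in the fit, the same change passed. In the adult, whose arrays shared the estimate of the spread in the main fit, it averaged 7.80. Its SD was 2.57 there, 0.85 in fetal kidney and 0.32 at 10 weeks.

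The nerve and glia list fell in 4 of 9 with 0 higher (44.4% and 0.0%, against 21.0% and 23.9% of all genes). Its mean went from 6.98 to 7.14 down to 5.91 to 6.21. ELAVL4 fell by 4.05 ± 0.15, UCHL1, which developing nephrons also express, by 1.89 ± 0.48, S100B by 1.73 ± 0.24 and SNAP25 by 1.30 ± 0.15, and the Schwann cell factor SOX10 (0.34 ± 0.14) and neurofilament NEFM (0.01 ± 0.18) did not pass. Lung, adrenal, smooth muscle and skeletal muscle lists had 1 of 6, 3 of 14, 2 of 10 and 1 of 11 genes higher, and 0, 0, 0 and 1 lower. The higher shares were 16.7%, 21.4%, 20.0% and 9.1%, none above the 23.9% of all genes. The adrenal count became 5 without fetal array 19A, the smooth muscle count 1 without each of 5 arrays, 19A, 26A, 80B, 7 and 10, and the skeletal muscle count 0 without any array but 80B. Levels in the adrenal list differed widely. The steroid enzyme CYP11A1 averaged 3.73 and 3.78 and CHGB of the adrenal medulla 4.45 at both ages, whereas the steroid enzyme CYP21A2 averaged 6.78 and 7.39 and rose by 0.61 ± 0.13, and CHGA averaged 12.98 and 13.10. The dimmer CHGA probe set, which detects several transcripts, fell by 2.75 ± 0.16. In the adipocyte list 2 of 9 rose and 1 fell (22.2% and 11.1%, against 23.9% and 21.0% of all genes). FABP4 rose by 2.50 ± 0.47 and CFD by 1.24 ± 0.19, PPARG fell by 1.33 ± 0.20, and ADIPOQ read 3.45 and 3.43. The part of these cell types in the tubule and signalling results was not tested.

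Genes best known from liver rose in 7 of 21 and fell in 3 (33.3% and 14.3%, against 23.9% and 21.0% of all genes). Their list mean was 7.65 to 8.0 in fetal arrays and 8.20 to 8.59 at 10 weeks. The thyroxine carrier transthyretin (TTR) read 6.72, 6.59, 6.0, 6.30 and 6.71 before birth and 10.46, 11.05, 11.15, 10.93 and 10.46 after it, 20.3-fold higher. The protease inhibitor SERPINA1 read 8.68, 7.19, 9.59, 8.82 and 8.57, then 11.88, 11.91, 12.28, 12.13 and 12.02. Both were separated. APOA2, antithrombin (SERPINC1) and prothrombin (F2) rose by 3.25 ± 0.45, 2.09 ± 0.23 and 2.07 ± 0.11, and alpha-fetoprotein (AFP) fell by 5.0 ± 0.36, or 0.38 on its probe set without shared transcripts. The hepatocyte enzymes ARG1 and CPS1 were near the bottom of the range, with averages of 4.33 and 4.18 and of 4.31 and 3.94. Albumin (ALB) averaged 10.91 and 11.01 and did not pass, and it read 10.81 and 10.70 in lung. Of its dimmer probe sets, those that passed changed by -0.36, 0.84 and 0.68.

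Over all genes, the 10 largest rises were those of SLC22A6, SLC22A8, HRG, ACSM1, AOX1, PON3, FGL2, SLC51A, TTR and CCL26. Of these, ACSM1 was read by a probe set that detects several transcripts. Histidine-rich glycoprotein (HRG), a plasma protein, read 5.56, 5.82, 5.21, 5.81 and 5.62 in fetal kidney and 10.04, 11.36, 11.53, 11.42 and 11.77 at 10 weeks, 49.1-fold higher. The aldehyde oxidase AOX1 was 26.3-fold higher, the lactonase PON3, bound to lipoproteins, 23.2-fold, FGL2 22.0-fold, and SLC51A, a subunit of the basolateral steroid and bile acid exporter, 21.9-fold. PON3 read 2.44 to 2.81 in fetal kidney, where 2.44 is the lowest deposited value, and 6.92 to 7.35 at 10 weeks. Its fold is thus taken from the bottom of the range. The chemokine CCL26 read 7.61, 8.10, 7.93, 7.61 and 8.07 and then 12.24, 11.96, 12.24, 12.06 and 12.28, 19.6-fold higher.

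The 10 largest falls were those of HBB, CRABP1, HBG, NPVF, AFP, CUX2, COL11A1, CRABP2, ELAVL4 and MEST. HBB, CRABP1, HBG, AFP and CUX2 were read by probe sets that detect several transcripts. The sets of HBB and HBG carry the same target name, so these falls may not be separate. On the HBB probe sets without shared transcripts the changes were -0.76 and -0.10, and the second did not pass. CRABP1 and CRABP2 encode the cellular binding proteins of retinoic acid, a signal that stroma sends to the ureteric bud. CRABP1 read 11.87, 11.84, 11.66, 11.59 and 11.62 in fetal kidney and 6.07, 5.86, 6.06, 5.69 and 5.73 at 10 weeks, 57.1-fold lower, and CRABP2 was 16.6-fold lower. NPVF, a neuropeptide precursor, read 8.62, 9.15, 9.60, 8.31 and 9.72 and then 4.08, 3.84, 3.77, 3.73 and 3.72, 38.1-fold lower. The fibrillar collagen gene COL11A1 was 19.6-fold lower, and 1 of its 6 dimmer probe sets did not pass. In all 20 of these genes the ages did not overlap, which the choice of genes required.

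The adult arrays place the 10-week levels. Over the called members of each list, the median size of the difference between adult and 10-week means was 0.10 for gluconeogenesis and amino acid metabolism, 0.19 for reabsorptive transporters and 0.23 for the Wnt pathway. The fetal-to-10-week differences of the same members had median sizes of 1.71, 1.70 and 1.29. The members were chosen for the second difference, so its larger size is a description. Among single genes, CITED1 averaged 7.41 in adults against 7.85 at 10 weeks, CUX2 6.64 against 5.72, AQP3 8.75 against 9.81 and LEF1 9.13 against 8.66. UMOD (13.13), PCK1 (13.35) and KLK1 (12.62) were close to their 10-week means of 12.87, 13.45 and 12.42.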

How the data were processed

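Total RNA from frozen sheep kidney was labelled with biotin and hybridised to bovine expression arrays, per the labels' protocols. The authors deposited log2 values of 24128 probe sets and used RMA and Partek, per the submitters' processing notes (no version is given there). RMA subtracts background, gives all arrays the same distribution and summarises the probes of each set, and it compresses the changes of dim sets. Detection calls were not used here, so signal over background is unknown.

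Groups came from the sample titles. The platform annotation gave 13318 probe sets 1 symbol, 86 several and 10724 none, and the 112 control sets were left out. Of the 9155 genes, 2913 had several probe sets. Genome positions and promoter sequences were not used here. A linear model was fitted to the 15 kidney arrays with limma 3.58.1 (lmFit, eBayes) in R 4.3.3, and two-sided tests were corrected over the 9155 genes with the Benjamini-Hochberg method at a threshold of 0.05. The adult arrays thus shared the estimate of the spread. With 5 arrays a group, the number of arrays limits the precision. Nothing used here says whether arrays of an age shared a litter or a processing day, so p-values measure the spread between these arrays. The fit was tested on simulated arrays with known changes.

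The members and the 45 gene lists were chosen with earlier results of these data known. Genes named are the 10 largest rises and falls among called genes without overlap, passing over locus identifiers, and from each list its core members, up to 6 called members by smallest adjusted p, and members that did not pass or opposed the list, from which some were left to the counts. Any other list member named, such as RSPO1, UROD and ANK1, was chosen after its values were seen. Alternatives were other arrays in the fit, a filter on the lowest 25% of genes, other probe set rules, repeated quantile normalisation, centring, eBayes with trend and robust settings, array weights and leaving out each array.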

Additional observations from a re-analysis of the deposited data

Results flagged for a closer look

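A single array stood apart from the other 4 of its age in 44 of the 688 sets of values looked at, by Dixon's test of the gap over the range. Chance alone sets apart about 1 in 20. Arrays 14A and 8 had 7 such values each, and 26A had the fewest, 2. The values below are log2 levels, each followed by the range of the other 4 arrays, and a list stands for the mean of its measured genes. The causes were not tested.

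In fetal array 10A, ADIPOQ (3.66 against 3.38 to 3.41) and ENO1 (10.28 against 10.10 to 10.12) were highest. ACSM1 (6.13 against 6.28 to 6.33) was lowest there. In fetal array 14A, KRT18 (8.99 against 8.61 to 8.71), KRT19 (9.88 against 9.60 to 9.67) and the reabsorptive transporter list (8.26 against 8.03 to 8.09) were highest. APCDD1 (11.29 against 11.38 to 11.40), FGF10 (6.26 against 6.49 to 6.57), HOXA9 (10.98 against 11.23 to 11.30) and LUM (9.91 against 10.22 to 10.32) were lowest there. In fetal array 19A, CD4 (5.71 against 5.08 to 5.19), E2F1 (5.64 against 5.12 to 5.27), SLC12A3 (8.59 against 8.10 to 8.22) and the distal tubule list (9.17 against 8.98 to 9.03) were highest. In fetal array 26A, CLDN3 (7.27 against 6.88 to 6.95) and DECR1 (9.76 against 9.57 to 9.60) were highest. In fetal array 80B, BOLA-DQA1 (8.80 against 6.70 to 7.15), CD3E (7.58 against 6.46 to 6.74), the HOX list (10.29 against 10.10 to 10.13) and the lymphocyte list (6.30 against 6.10 to 6.15) were highest. CDH5 (10.73 against 11.49 to 11.73) and COL11A1 (9.35 against 9.75 to 9.84) were lowest there.

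In 10-week array 7, PEX7 (9.60 against 9.12 to 9.25), the lung epithelium list (6.41 against 6.33 to 6.34) and the thick ascending limb list (8.03 against 7.87 to 7.90) were highest. AHSP (5.49 against 5.98 to 6.16) and HRG (10.04 against 11.36 to 11.77) were lowest there. In 10-week array 8, ALB (11.22 against 10.92 to 11) and HOXA9 (11.42 against 11.02 to 11.10) were highest. ATP6V0A4 (11.26 against 11.44 to 11.51), HPD (12.62 against 12.98 to 13.06), SLC22A6 (11.21 against 11.72 to 11.91) and TCF21 (9.70 against 10.04 to 10.15) were lowest there. The insulin-like growth factor list (8.53 against 8.69 to 8.73) was lowest there. In 10-week array 9, the intercalated cell list (8.06 against 7.74 to 7.82) was highest. INHBA (6.55 against 6.91 to 7.03) and SCNN1G (10.04 against 10.47 to 10.61) were lowest there. In 10-week array 10, AKR1B1 (10.82 against 10.24 to 10.39) and CPS1 (4.50 against 3.70 to 3.89) were highest. SFRP2 (6.50 against 6.81 to 6.85) was lowest there. In 10-week array 11, ROR2 (8.78 against 8.29 to 8.40) and SOX10 (6.56 against 6.31 to 6.38) were highest. G6PC1 (9.88 against 10.50 to 10.69) and SLC22A5 (9.76 against 10.31 to 10.44) were lowest there.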

How the results depend on the processing

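The calls rest on 5 arrays an age, 1 probe set a gene and bovine probes, and the levels carry no depth or detection limit, so dim genes are the least certain. Over 19 alternatives, 189 of the 208 called genes named in the text kept their direction and their call in every setting that measured them, and both totals stayed within 1.5 times. Of 5624 single comparisons, 24 lost a call, 31 gained one and 2 reversed. IGF2 changed by 0.32 without multi-transcript probe sets, and RFC5 by 0.43 with the mean of all probe sets. Centring the arrays moved the difference between the ages by 0.01 for all genes. Among the further probe sets of called genes in the lists, 97 of 174 were called the same way, 74 were not called and 3 were called the other way (IGF2, LDHA and TNC). Of 165 further probe sets of listed genes that were not called, 29 were called higher and 12 lower, in 28 genes, GHR, LGR4 and BOLA-DQA1 among them.

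Some list counts moved by more than 1.5 times. Without the 25% of genes with the lowest mean, lower members became 1 in the nephron progenitor (cap mesenchyme) list and 3 in FGF and GDNF signalling, and higher members became 3 in organic anion and cation transporters, 6 in the lymphocyte and plasma cell list and 4 in MHC class II presentation, because fewer genes were tested. With all 30 arrays, lower members became 3 in the early nephron (renal vesicle to S-shaped body) list and 3 in the Notch pathway, and higher members became 3 among claudins, cadherins and junction proteins; the cause was not tested. Leaving out 1 array gave 3 to 5 lower members in the early nephron list (3 without 14A or 8), 2 to 5 in the Notch pathway (2 without the same arrays) and 4 to 7 in FGF and GDNF signalling (4 without 26A), and 3 to 5 higher members among organic anion and cation transporters (3 without 10A).

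No paired analysis was possible because the fetal and 10-week kidney arrays share no animal number in their titles.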
